A study of Mus musculus with 6 samples.

Results

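The genes described here encode 10 surface molecules that restrain or co-stimulate T cells: Pdcd1 (PD-1), Ctla4, Lag3, Btla, Tigit, Havcr2 (TIM-3), Cd160, Cd200, Cd28 and Icos. They were taken by gene symbol, and all 10 were found among the 22298 genes listed in the deposited tables. The libraries came from sorted C57BL/6 thymocytes that the sample names call double-negative (DN), meaning without surface CD4 and CD8, while the extraction protocol speaks of the DN2 stage. The 3 Toxf/f samples carry Tox alleles flanked by recombination sites and no Cre in their genotype label, and the 3 Toxf/fPdcd1Cre samples carry the same alleles with a Cre recombinase named for Pdcd1. Mice were untreated, and their age was 3 weeks for replicates 1 and 2 of either genotype and 4 weeks for replicate 3. No group with the Cre and intact Tox is among these samples, so an effect of the Cre itself and of the loss of Tox cannot be told apart. The labels do not say which cells the Cre is active in, nor whether samples came from separate mice, and p-values measure only the spread between libraries. Toxf/f replicates 1 and 2 had the same values in every row, both with the number 2 in their column headers. They were counted as 1 library, called the shared Toxf/f library below, which left 2 Toxf/f against 3 Toxf/fPdcd1Cre libraries.

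CD28 binds CD80 and CD86 on antigen-presenting cells and adds a second signal to that of the T cell receptor, and ICOS, of the same family, binds ICOS ligand. CTLA-4 competes with CD28 for the same ligands and is carried at high level by regulatory T cells. PD-1, BTLA and TIGIT pass inhibitory signals through tyrosine motifs in their tails, and LAG-3 and TIM-3 are further inhibitory receptors of activated T cells. In peripheral T cells that meet antigen for long, TOX is known to sustain several of these inhibitory receptors, while in the thymus it is known for its part in CD4 T cell development.

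RefSeq promoter windows on GRCm38.p6 were matched by symbol for 7 of the 10 genes: Pdcd1, Ctla4, Btla, Tigit, Havcr2, Cd160 and Cd200. Windows of 250 bases before the annotated start are shown for 3 genes: Btla, the only receptor gene that passed the test, Ctla4, whose level was close between genotypes, and Pdcd1, for which the Cre is named. Capitals mark 2 short motifs on either strand, GGAAA, the core bound by NFAT factors, and CANNTG, the E-box. They cover Btla at chr16:45224087-45224336 (plus strand), Ctla4 at chr1:60908775-60909024 (plus strand) and Pdcd1 at chr1:94052554-94052803 (minus strand), each written 5′ to 3′. These starts are those of RefSeq, while gene spans given below are from GENCODE M21 and differ: the Ctla4 window lies inside the longer GENCODE span, and the Btla window runs past the GENCODE start.
Btla: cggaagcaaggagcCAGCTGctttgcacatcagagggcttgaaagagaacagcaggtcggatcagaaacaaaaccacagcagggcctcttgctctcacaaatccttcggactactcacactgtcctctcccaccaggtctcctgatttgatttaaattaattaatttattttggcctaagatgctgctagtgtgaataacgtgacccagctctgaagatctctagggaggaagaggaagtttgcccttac
Ctla4: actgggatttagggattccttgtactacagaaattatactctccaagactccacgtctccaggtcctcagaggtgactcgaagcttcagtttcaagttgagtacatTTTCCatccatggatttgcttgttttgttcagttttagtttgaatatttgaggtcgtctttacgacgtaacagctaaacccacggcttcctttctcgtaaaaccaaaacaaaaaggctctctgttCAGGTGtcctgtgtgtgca
Pdcd1: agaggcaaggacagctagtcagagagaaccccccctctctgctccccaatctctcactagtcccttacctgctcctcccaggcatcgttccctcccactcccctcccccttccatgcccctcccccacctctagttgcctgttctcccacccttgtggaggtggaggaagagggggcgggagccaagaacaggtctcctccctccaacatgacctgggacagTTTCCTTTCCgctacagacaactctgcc
The Btla window held 0 matches to GGAAA and 1 to CANNTG, the Ctla4 window 1 and 1, and the Pdcd1 window 2 and 0. Of 32851 mouse promoter windows of this length, 55.6% held GGAAA and 66.2% held CANNTG, so that either motif is common. The longer element AAAGGTCA, bound by NR4A factors and present in 1.34% of windows, was in none of the windows matched to the receptor genes.

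Total estimated counts ranged from 14245492 to 16199195 per distinct library. Tox, the targeted gene, stood at 29.3 ± 2.53 FPKM (fragments scaled by gene length and depth; SD, n = 2) in Toxf/f and 4.11 ± 0.825 FPKM (SD, n = 3) in Toxf/fPdcd1Cre libraries. Transcripts of both coreceptors were abundant in all libraries: Cd4 was at 289 ± 10.7 and 271 ± 34.1 FPKM and Cd8a at 543 ± 100.1 and 587 ± 47.4 FPKM in the 2 genotypes. This goes against libraries of cells without CD4 and CD8 transcripts, and the name double-negative is used here only as the labels give it. In such bulk RNA fewer cells of a type and less RNA per cell cannot be told apart.

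Cd28 was by far the most abundant receptor transcript, and Pdcd1 was the only one close to 0. Averaged over the 5 distinct libraries, Cd28 was at 54.3 ± 4.17 FPKM (SD, n = 5) and ranked 1571 among all listed genes. Icos followed at 21 ± 10.5 FPKM, with a range from 11.31 to 37.69 that did not reach that of Cd28. Below them came Btla at 7.75, Cd160 at 6.84, Ctla4 at 5.73, Cd200 at 5.48, Lag3 at 3.90, Havcr2 at 2.57 and Tigit at 1.89 FPKM. From Icos down to Tigit each gene's range overlapped that of its neighbour, so ranges alone do not resolve the order of neighbours. Genes further apart could separate. The lowest Icos value, 11.31 FPKM, was above the highest of Cd160, 10.53, and the highest Tigit value, 3.25, was below the lowest of Cd200, 3.39. Pdcd1, at 0.128 FPKM, was last and stood clear of Tigit.

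**Figure D1:**
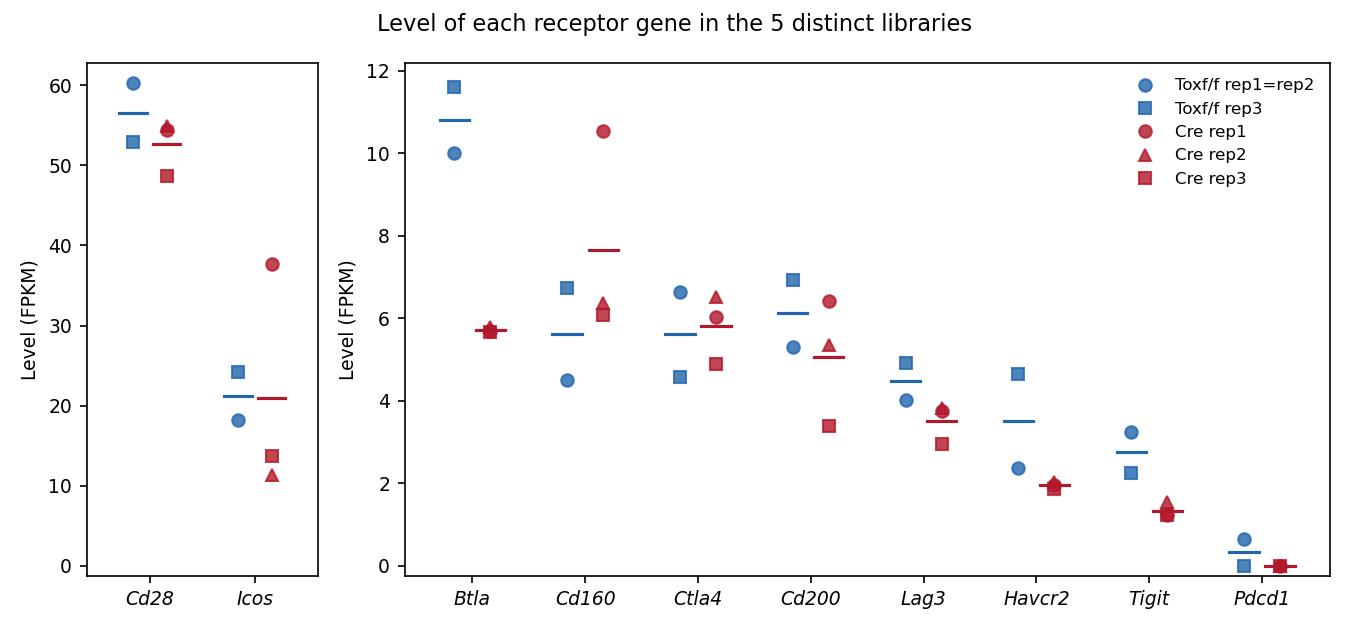
Level in FPKM of the 10 receptor genes in the 5 distinct libraries, with Cd28 and Icos on a separate scale. Points are libraries (blue Toxf/f, red Toxf/fPdcd1Cre, labelled Cre), and bars are genotype means. The Btla points separate by genotype, with a Toxf/f mean of 10.8 FPKM against 5.66 to 5.78 FPKM, and 1 red Icos point lies at 37.69 FPKM.

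Whether the receptors changed with the genotype was asked with edgeR's quasi-likelihood test over all 14121 genes with enough counts. Btla alone fell, to 54.7% of its Toxf/f level, and the other 8 tested receptor genes did not pass. Pdcd1 had too few counts to be tested. Over the tested genome 1.64% of genes passed, 1.51% as lower and 0.135% as higher, and among the receptors 1 of 9 passed as lower and 0 as higher. At an unadjusted p under 0.05, which 10.3% of all tested genes reached in either direction, there were 3 receptor genes, Btla, Tigit and Havcr2, all lower. DESeq2 also called 1 lower and 0 higher. The 9 fold changes had a median of -0.29 on the log2 scale, against 0.03 over all tested genes. Library values did not overlap between genotypes for 4 genes that were lower (Btla, Tigit, Havcr2 and Lag3) and 1 that was higher (Cd160). Over all tested genes 26.2% separated, 13.5% as lower and 12.6% as higher.

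**Figure D2:**
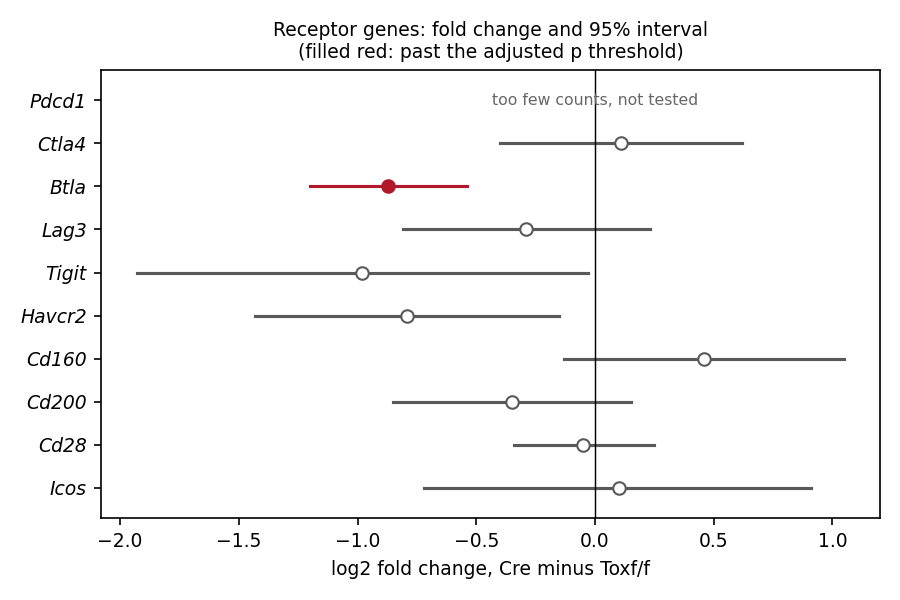
Log2 fold change, Toxf/fPdcd1Cre minus Toxf/f, of each receptor gene with its 95% interval from edgeR. Filled red marks an adjusted p under 0.05, reached by Btla at -0.87, and the intervals of Ctla4, Lag3, Cd160, Cd200, Cd28 and Icos include 0.

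Btla encodes the B and T lymphocyte attenuator, an inhibitory receptor of lymphocytes and dendritic cells that binds HVEM. The gene (ENSMUSG00000052013) is annotated in GRCm38 at chromosome 16, 45224315 to 45257670, plus strand. Its estimated counts were 462 in the shared Toxf/f library and 510 in Toxf/f replicate 3, against 243, 264 and 233 in Toxf/fPdcd1Cre replicates 1 to 3. In CPM (counts scaled to a common library size) these are 29.6 and 30.7 against 16.6, 16.9 and 16, so libraries of a genotype lay close together and the genotypes were well apart. Of the 9 tested receptors it also had the narrowest relative spread within Toxf/fPdcd1Cre, 16.5 ± 0.422 CPM (SD, n = 3), from 30.2 ± 0.807 CPM (SD, n = 2) in Toxf/f. The log2 fold change was -0.87 ± 0.149 (SE), with a 95% interval from -1.20 to -0.54 and an adjusted p of 0.0137 (edgeR, Benjamini-Hochberg over all tested genes). Within mice of 3 weeks the log2 ratio was -0.82 (1 against 2 libraries), and within mice of 4 weeks it was -0.94 (1 against 1). An exact two-sided permutation p was 0.1, which is also the smallest that 2 against 3 libraries can reach. Tigit and Havcr2, which were not called, had the same permutation p. The call ended without the shared Toxf/f library, with Toxf/f replicate 3 left out and without Toxf/fPdcd1Cre replicate 3 (adjusted p = 0.124, 0.209 and 0.0636), while the log2 fold change stayed between -0.91 and -0.84 whichever library was left out.

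The genes whose profile over the 5 libraries was most like that of Btla were Cybb, Dglucy and Tmem119. Likeness was the distance between centred log2 CPM profiles among 12769 other genes, and the distances were 0.141, 0.184 and 0.190. Fold changes near that of Btla follow from this choice and are no separate support. Cybb, a subunit of the phagocyte NADPH oxidase, had a log2 fold change of -0.77 ± 0.136 (SE, adjusted p = 0.0159, edgeR). Dglucy and Tmem119 were at -0.79 and -0.78 and did not pass (adjusted p = 0.142 and 0.191, edgeR).

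Ctla4 showed no separation of the genotypes. The gene (ENSMUSG00000026011) lies on chromosome 1 from 60887000 to 60915832. Its counts were 198 and 142 without and 166, 204 and 144 with the Cre. The highest level, 13 CPM, was in a Toxf/fPdcd1Cre and the lowest, 8.55 CPM, in a Toxf/f library, and the groups overlapped. The log2 fold change was 0.11 ± 0.234 (SE, adjusted p = 0.947, edgeR), and its 95% interval, from -0.40 to 0.62, corresponds to 0.755-fold to 1.54-fold. Without Toxf/f replicate 3 the value was -0.15, on the other side of 0, and the log2 ratio was -0.06 within mice of 3 weeks and 0.21 within mice of 4 weeks.

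Pdcd1 transcripts were nearly absent. The gene lies on chromosome 1 from 94038305 to 94052553, on the minus strand. The shared Toxf/f library held 19 counts, or 1.22 CPM, and the other 4 libraries 0. Taking 3 counts summed over the genotype as the floor, its Toxf/fPdcd1Cre level was at most 0.0669 CPM, at least 8.81-fold lower than the 0.59 CPM of both Toxf/f libraries pooled, which rests on the shared library alone. Without that library both genotypes were at 0 and no fold can be given. In Toxf/f replicate 3 the same floor of 3 counts would be 0.181 CPM. Floors and intervals of counts cover counting error only.

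Tigit, which binds the poliovirus receptor CD155 and competes with the activating receptor CD226, was scarce. Toxf/f libraries held 46 and 33 of its counts, Toxf/fPdcd1Cre libraries 16, 23 and 17, and the groups did not overlap. The log2 fold change of -0.98 ± 0.435 (SE) had a 95% interval from -1.93 to -0.03 and did not pass over all genes (adjusted p = 0.464, edgeR). Havcr2 encodes TIM-3, which myeloid cells carry as well as T cells. Its counts were 100 in the shared Toxf/f library and 203 in Toxf/f replicate 3, against 76, 89 and 77. Toxf/f replicate 3 was thus high, and the log2 fold change of -0.79 ± 0.291 (SE, adjusted p = 0.323, edgeR) was -0.25 without it and -1.18 without the shared Toxf/f library. Within mice of 3 and of 4 weeks its log2 ratio was -0.24 and -1.21, and that of Tigit -1.20 and -0.77.

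Lag3, which binds MHC class II, had 124 and 158 counts in Toxf/f and 107, 124 and 90 in Toxf/fPdcd1Cre libraries. In CPM the groups just missed each other, with 7.94 as the lowest Toxf/f and 7.91 as the highest Toxf/fPdcd1Cre value, and the log2 fold change was -0.29 ± 0.236 (SE, adjusted p = 0.793, edgeR). Cd160, a receptor for HVEM found on cytotoxic and innate-like lymphocytes, had 95 and 134 counts in Toxf/f and 187, 130 and 119 in Toxf/fPdcd1Cre libraries. It was the only receptor with all Toxf/fPdcd1Cre values above the Toxf/f values, by a small margin, 8.19 against 8.07 CPM. Its log2 fold change was 0.46 ± 0.271 (SE, adjusted p = 0.640, edgeR), and 0.18 without Toxf/fPdcd1Cre replicate 1, which held 12.8 CPM. Within mice of 3 weeks the log2 ratio was 0.79 and within mice of 4 weeks 0.02. For Lag3 these were -0.06 and -0.62. In GENCODE M21 Cd160 overlaps Pdzk1 on the opposite strand, a gene with 19.55 to 42.21 counts per library that did not pass (adjusted p = 0.476, edgeR), and whether counting used strand is not given in the sources used here.

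Cd200 encodes a surface glycoprotein that inhibits myeloid cells through their receptor CD200R1. It had 185 and 246 counts in Toxf/f and 184, 164 and 121 in Toxf/fPdcd1Cre libraries, with overlapping groups. The log2 fold change was -0.35 ± 0.227 (SE, adjusted p = 0.692, edgeR). Within mice of 3 weeks the log2 ratio was -0.04 and within mice of 4 weeks -0.83, each with 1 Toxf/f library.

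Neither co-stimulatory receptor, Cd28 nor Icos, passed the test. Cd28 held 4041 and 3688 counts in Toxf/f and 3370, 3871 and 3218 in Toxf/fPdcd1Cre libraries, or 240.4 ± 25.9 CPM (SD, n = 2) and 233 ± 13.1 CPM (SD, n = 3). With a log2 fold change of -0.05 ± 0.134 (SE, adjusted p = 0.964, edgeR) and a 95% interval from 0.790-fold to 1.19-fold, it was the most tightly bounded of the receptors. The Cd28, Ctla4 and Icos genes lie in a row on chromosome 1, with 113.641 kilobases between Cd28 and Ctla4 and 62.095 between Ctla4 and Icos in GRCm38, and none of them passed the test.

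Icos varied more within a genotype than between them. Toxf/f libraries held 894 and 1150 of its counts, and Toxf/fPdcd1Cre replicates 1 to 3 held 1740, 594 and 672. The Toxf/fPdcd1Cre values thus lay on both sides of the Toxf/f range, with 119 CPM in replicate 1 and 37.9 and 46.2 CPM in the others. The log2 fold change was 0.10 ± 0.372 (SE, adjusted p = 0.972, edgeR), and without Toxf/fPdcd1Cre replicate 1 it was -0.63 ± 0.166 and still did not pass (adjusted p = 0.0835, edgeR). Within mice of 3 weeks its log2 ratio was 0.45 and within mice of 4 weeks -0.58. Icos was 2.83-fold higher in replicate 1 than in the mean of replicates 2 and 3, and 2.15% of 13110 genes with a mean of at least 1 CPM had a ratio as large. Marker sums differed in that library too, in both directions. Over the mean of replicates 2 and 3 the sum was 1.61-fold for gamma-delta T cells, 1.70-fold for natural killer and innate lymphoid cells and 1.66-fold for dendritic cells, which were still below Toxf/f. The sums of early double-negative thymocytes (607 CPM) and of thymic epithelium and endothelium (1259.5 CPM) were also the highest of all libraries there, by 1.18-fold and 1.15-fold over that mean. Regulatory and mature T cell sums were at 1.16-fold and 1.05-fold of it. Lower than that mean were the sums of double-positive thymocytes and of macrophages, both at 0.782-fold, and of B and plasma cells, at 0.88-fold. The 6 gamma-delta T cell genes found summed to 442 CPM in replicate 1, against 270.1 and 279.8 CPM in replicates 2 and 3 and 153 to 182 CPM in Toxf/f, with Il17a at 0 in some libraries. Trdc alone made up 325 CPM in replicate 1 and 159.6 and 126 CPM in Toxf/f. Of the 5 tested, the T cell receptor gene Trdc and the scavenger receptor gene Cd163l1 rose by 0.86 and 3.35 on the log2 scale (adjusted p = 0.0437 and 0.00552, edgeR), and 0 fell. The kinase gene Blk was at 1.04, Sox13 at 0.10 and Il23r at 0.05, and none of them passed. The 8 markers of natural killer and innate lymphoid cells summed to 184 CPM in replicate 1, 113 and 104 CPM in replicates 2 and 3 and 82.5 to 83.6 CPM in Toxf/f. Gzma alone made up 126, 75 and 73.5 CPM in replicates 1 to 3 and 55.8 and 49.2 CPM in Toxf/f. The tested markers of this list had a median log2 fold change of -0.17, with 4 below 0 and 3 above. Of the 7 tested, the receptor genes Klrb1c and Klrk1 rose and 0 fell. For this list and that of gamma-delta T cells, the shares over all tested genes were 0.135% higher and 1.51% lower. The most abundant of the 7, the granzyme gene Gzma and Nkg7, were at 0.80 and -0.78 and did not pass. These 4 marker calls ended without the shared Toxf/f library (adjusted p from 0.115 to 0.381) and, for all 4, without Toxf/f replicate 3 (from 0.209 to 0.588), and that of Trdc also without Toxf/fPdcd1Cre replicate 3 (adjusted p = 0.0666, edgeR). The part of these cells in the Icos and Cd160 values was not tested.

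Regulatory T cells carry CTLA-4, TIGIT and ICOS, and their defining factor was almost gone from the Toxf/fPdcd1Cre libraries. Foxp3 had 114.92 and 162.49 estimated counts in Toxf/f and 6.19, 6.09 and 0 in Toxf/fPdcd1Cre libraries, a log2 fold change of -4.96 ± 0.573 (SE, adjusted p = 0.00127, edgeR) whose call ended when Toxf/f replicate 3 was left out (adjusted p = 0.0868). Of the 8 genes on the regulatory T cell list 4 fell (Foxp3, Ikzf4, Gpr83 and Tnfrsf18) and 0 rose. Over all tested genes these shares were 1.51% and 0.135%. The list had a median log2 fold change of -1.17. Without Toxf/f replicate 3 the number lower was 1 (Gpr83), and Ikzf4 and Tnfrsf18 were lost besides Foxp3 (adjusted p = 0.241 and 0.189, edgeR). Without the shared Toxf/f library it was 2, with Ikzf4 and Tnfrsf18 lost (adjusted p = 0.0849 and 0.175, edgeR). Il2ra, Capg and Ikzf2, the most abundant of the list, were at 0.13, -0.39 and 0.03 and did not pass. Other thymocytes are also known to express Il2ra and Ikzf2. Summed over the list, levels were 253 and 292 CPM in Toxf/f and 257, 202 and 242 CPM in Toxf/fPdcd1Cre libraries. Ctla4 thus stood at 1.08-fold, Icos at 1.07-fold and Tigit at 0.507-fold of their Toxf/f level in libraries where Foxp3 was at 0.0321-fold. The differences between these fold changes were not tested.

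**Figure D3:**
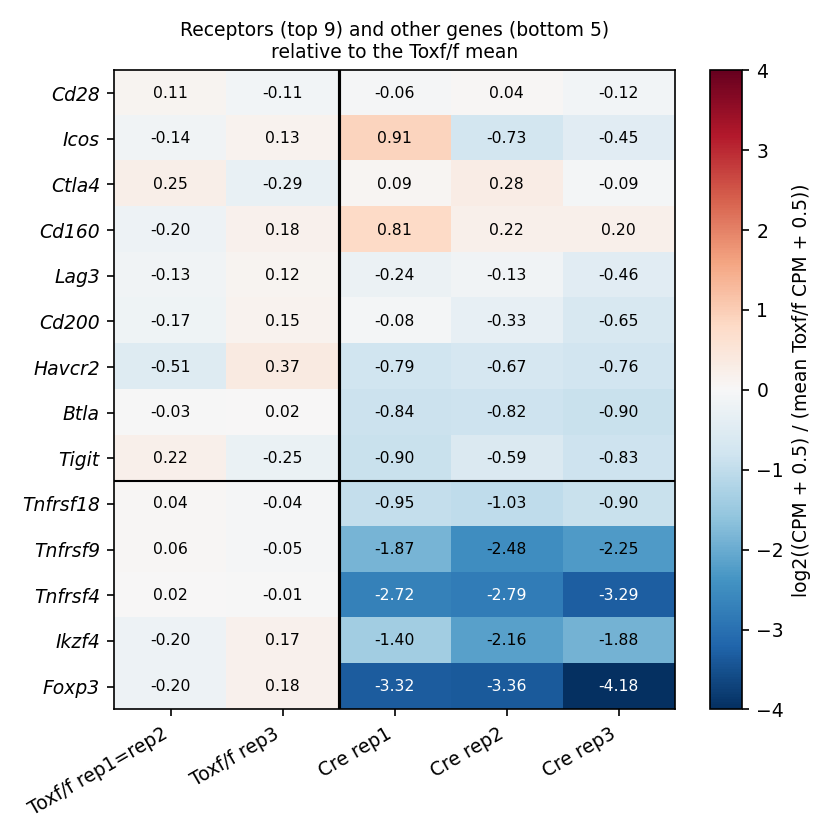
Log2 ratio of each library to the Toxf/f mean, computed on CPM plus 0.5, for the 9 receptor genes with enough counts. Below them are 5 genes of the TNF receptor family and of regulatory T cells, all picked from those called lower. Members of these lists that were not called are left out, among them Il2ra, Capg, Ikzf2 and Cd27 (log2 fold changes 0.13, -0.39, 0.03 and 0.05). Columns are libraries (Cre, Toxf/fPdcd1Cre) and colour gives the ratio. The row of Ctla4 stays between -0.29 and 0.28, that of Btla is at -0.84, -0.82 and -0.90 in the Cre libraries, and that of Foxp3 reaches -4.18.

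B cells, dendritic cells and mature T cells also carry BTLA, and summed markers of each were lower in the Toxf/fPdcd1Cre libraries, with most of the B cell and dendritic cell sums in Toxf/f resting on 2 genes and 1 gene. For the counts of each list below, 1.51% of all tested genes were called lower and 0.135% higher. The 8 B and plasma cell markers summed to 252 and 229.9 CPM in Toxf/f and 58.3 to 79.0 CPM in Toxf/fPdcd1Cre libraries. Of these 2 of 8 fell, the immunoglobulin kappa chain gene Igkc and the joining chain gene Jchain, at -3.45 and -3.80. Both kept their calls whichever library was left out. Igkc and Jchain made up 194 and 146 CPM of the 2 Toxf/f sums, and the other 6 markers summed to 57.6 and 83.7 CPM against 45.7 to 55.3 CPM. The B cell receptor subunit gene Cd79b was at 0.07 (adjusted p = 0.967, edgeR). Dendritic cell markers summed to 172 and 204 CPM against 45.9 to 79.6 CPM. Ccl22 alone made up 117 and 129 CPM of the Toxf/f sums, and the other 7 markers summed to 54.8 and 74.6 CPM against 35.2 to 47.6 CPM. Here 2 of 8 fell, the chemokine gene Ccl22 at -2.81 and the growth factor receptor gene Flt3 at -1.05, while Siglech was at -0.26 and did not pass. Neither kept its call without the shared Toxf/f library (adjusted p = 0.0715 and 0.115) or with Toxf/f replicate 3 left out (0.102 and 0.393), nor Flt3 without Toxf/fPdcd1Cre replicate 3 (adjusted p = 0.115, edgeR). Mature T cell markers summed to 555 and 639 CPM against 333 to 360.4 CPM, with 6 of 8 lower and 0 higher. Only 3 of these passed without the shared Toxf/f library and 2 without Toxf/f replicate 3, against 5 or 6 without any of the others. Among the more abundant of them, the homing receptor gene Ccr7 fell, at -2.19, and Itgb7 was at -0.53 and did not pass. Macrophage markers summed to 753 and 845 CPM against 441 to 585 CPM, with 0 of 8 past the test (2 at an unadjusted p under 0.05, against 10.3% of all tested genes), and Lyz2, C1qb and C1qa at -1.12, -0.26 and -0.53. No marker of these 4 lists was at 0 in any library. The 8 markers of double-positive thymocytes had 0 called (0 at an unadjusted p under 0.05), with Dntt, Cd8b1 and Rag1 at 0.26, 0.03 and 0.23, and their sums overlapped, 9574.9 to 10609.2 against 9630.5 to 12657.6 CPM. Early double-negative markers and those of thymic epithelium and endothelium each had 1 of 8 lower and 0 higher. The part of these cells in the Btla value was not tested.

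Ligands and counter-receptors of these molecules fell in 4 of 17 tested cases and rose in 0, against 1.51% and 0.135% of all tested genes. The median log2 fold change of the list was -0.57, against 0.03 over all tested genes. An unadjusted p under 0.05 (edgeR) was reached by 10 of the 17, against 10.3% of all tested genes. Cd80, a ligand of CD28 and CTLA-4, fell 2.99-fold, from 7.88 ± 1.41 FPKM (SD, n = 2) to 2.60 ± 1.40 FPKM (SD, n = 3). Icosl, the ligand of ICOS, fell 2.25-fold, from 6.67 ± 0.580 to 2.91 ± 0.937 FPKM. The galectin gene Lgals3 fell 1.86-fold and H2-Eb1, a chain of the MHC class II molecules that LAG-3 binds, fell 1.87-fold (adjusted p for the 4 from 0.0179 to 0.0365, edgeR). H2-Aa and H2-Ab1, the most abundant genes of the list, were at -0.74 and -0.57 and did not pass (adjusted p = 0.0855 and 0.125, edgeR). None of the 4 kept its call without the shared Toxf/f library, without Toxf/f replicate 3 or without Toxf/fPdcd1Cre replicate 3, Cd80 and Icosl also lost theirs without Toxf/fPdcd1Cre replicate 2 (adjusted p = 0.0620 and 0.0567, edgeR), and 7 genes of the list passed without Toxf/fPdcd1Cre replicate 1.

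Pairing each receptor with its partners, the following did not pass. Cd86, the other ligand of CD28 and CTLA-4, was at -0.74 ± 0.191 (SE, adjusted p = 0.0985, edgeR). The PD-1 ligand genes Cd274 and Pdcd1lg2 were at -0.42 and -0.91, and Tnfrsf14, which encodes HVEM, the partner of BTLA and CD160, at -0.23. Pvr, Nectin2 and Nectin3, partners of TIGIT, were at -0.08, -0.26 and -0.46. Lgals9 and Ceacam1, reported partners of TIM-3, were at 0.05 and -0.07, and Cd200r1 was at -0.76 (adjusted p = 0.401, edgeR). Fgl1 and Vtcn1 had too few counts to be tested.

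**Figure D4:**
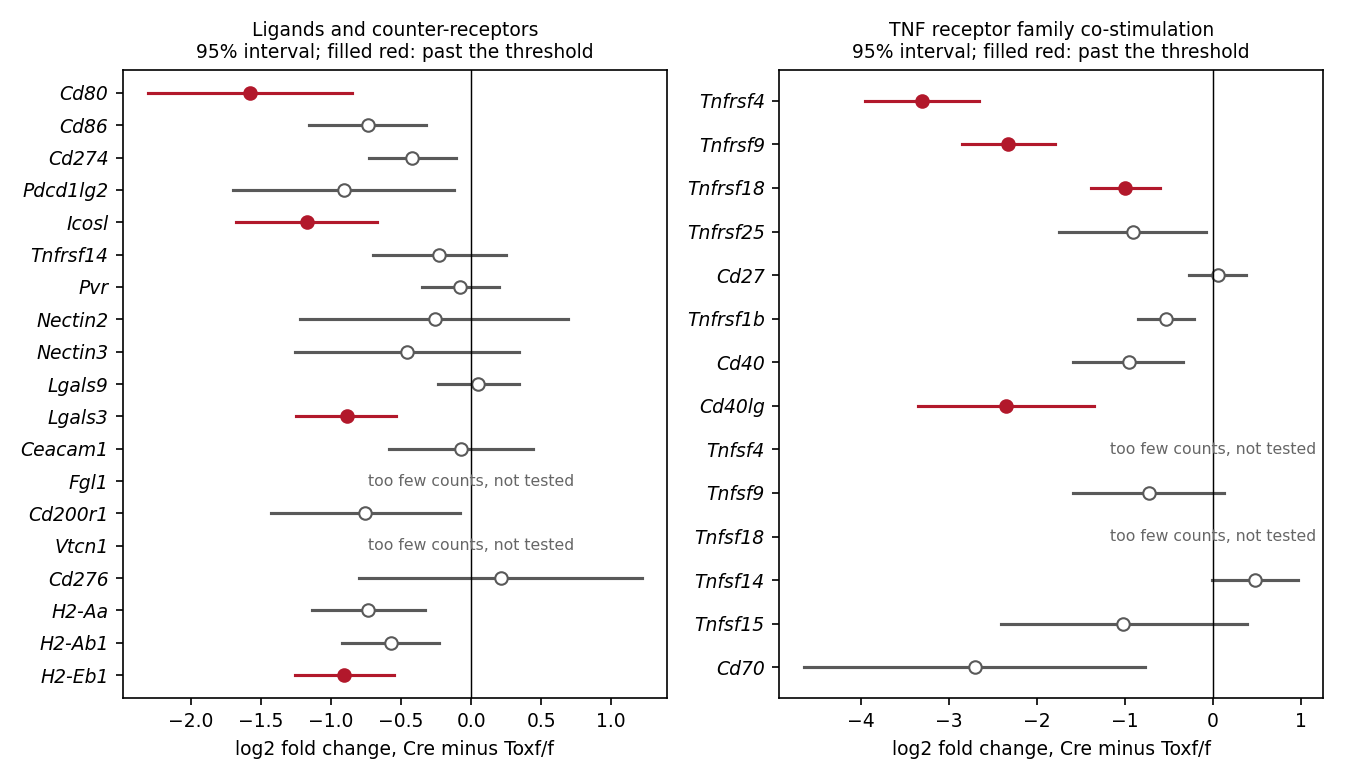
Log2 fold change, Toxf/fPdcd1Cre (Cre) minus Toxf/f, with 95% intervals for the ligand list (left) and the TNF receptor family list (right). Filled red points passed the adjusted threshold: Cd80, Icosl, Lgals3 and H2-Eb1 on the left, and Tnfrsf4, Tnfrsf9, Tnfrsf18 and Cd40lg on the right.

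The TNF receptor family holds the other large group of co-stimulatory receptors. Of 12 tested genes of its list 4 fell and 0 rose, against 1.51% and 0.135% of all tested genes. The list had a median of -0.98 on the log2 scale. An unadjusted p under 0.05 (edgeR) was reached by 8 of the 12, against 10.3% of all tested genes. Tnfrsf4, which encodes OX40, went from 207 and 215 counts in Toxf/f to 23, 23 and 13 in Toxf/fPdcd1Cre libraries and fell 9.92-fold (adjusted p = 0.000326, edgeR). Tnfrsf9, which encodes 4-1BB, had 298 and 292 counts against 68, 45 and 50 and fell 5.02-fold. Both kept their call whichever of the 5 libraries was left out. Tnfrsf18, which encodes GITR, had 312 and 313 counts against 143, 145 and 148 and fell 1.99-fold. Cd40lg, the CD40 ligand of helper T cells, had 158 and 176 counts against 57, 17 and 16, a log2 fold change of -2.35 that was -3.28 without Toxf/fPdcd1Cre replicate 1. Tnfrsf18 and Cd40lg lost their calls without the shared Toxf/f library (adjusted p = 0.175 and 0.227), when Toxf/f replicate 3 was left out (0.189 and 0.325) and without Toxf/fPdcd1Cre replicate 3 (adjusted p = 0.0582 and 0.0745, edgeR). Cd27, the most abundant of the list at 169 FPKM in both genotypes, was at 0.05, and Tnfrsf1b was at -0.53 (adjusted p = 0.963 and 0.120, edgeR).

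Among 17 other tested surface regulators, with a median of -0.18, 2 fell and 0 rose, against 1.51% and 0.135% of all tested genes. They were Cd69, an early activation marker that retains cells in tissue, at -0.93, and Cd52, a small glycoprotein of lymphocytes, at -0.86 (adjusted p = 0.0438 and 0.0357, edgeR). Both lost their calls without the shared Toxf/f library (adjusted p = 0.308 and 0.267), when Toxf/f replicate 3 was left out (0.398 and 0.390) and without Toxf/fPdcd1Cre replicate 3 (adjusted p = 0.0815 and 0.0745, edgeR). Cd2, the second most abundant of them, was at -0.41 (adjusted p = 0.231, edgeR). Of 28 genes of signalling next to these receptors 0 passed in edgeR and 0 in each of the 18 alternatives, DESeq2 and limma included, and 1 had an unadjusted p under 0.05. Over all tested genes 1.64% passed in edgeR and 10.3% reached that unadjusted p, so 0 calls among 28 genes say little. The 28 genes had a median of 0.02, and the kinase gene Lck and the adaptor gene Lat, the most abundant, were at 0.08 ± 0.146 and -0.04 ± 0.153 (SE).

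The 20 transcription regulators tied to these receptors in activated T cells had a median of -0.19. Of these 4 fell and 0 rose, against 1.51% and 0.135% of all tested genes. Tox is among these 4 as the targeted gene, and its call is no result about the list. The others were the nuclear receptor genes Nr4a1 and Nr4a3, which T cell receptor signals induce, at -1.18 and -1.17, and the repressor gene Bach2 at -1.50 (adjusted p = 0.00536, 0.00862 and 0.00290, edgeR). Nr4a1 and Nr4a3 were not called without the shared Toxf/f library (adjusted p = 0.107 and 0.0805) or with Toxf/f replicate 3 left out (0.130 and 0.224), nor was Bach2 without the latter (adjusted p = 0.102, edgeR). Tcf7 and Nfatc3, the most abundant, were at -0.04 and 0.25.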

How the data were processed

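Per the file headers, the authors deposited for each sample an estimated count and an FPKM value per gene. StringTie 1.3.1, HISAT2 and fastp 0.18.0 appear in the submitters' processing notes without a role, and build, annotation and strand setting were not given in the sources used here. From 8.81% to 9.84% of genes per library had counts that were not whole, and counts were rounded. The identical Toxf/f files were counted once, as 5 distinct libraries. Genes were filtered with filterByExpr, scaled by TMM and tested with edgeR 4.0.16 (quasi-likelihood, R 4.3.3, no covariate), Benjamini-Hochberg threshold 0.05, which left 14121 genes. Permutation tests used log2(CPM + 1). On simulated counts the test recovered 63.5% of 200 genes changed 2-fold among 14121, with 6 false calls. Of 200 genes changed 4-fold it recovered 94.5%, with 9 false calls. How closely the simulated spread followed that of the real libraries is not given here. These shares therefore hold for the simulated counts only, and may be too favourable for the real comparison. Alternatives used other scalings, filters, DESeq2 1.42.0, limma 3.58.1, age, the replicate number and each library left out.

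The receptor genes and gene lists were chosen with earlier results of these data known, so no list is independent support. The rule named all 10 receptors, Tox, called members of each pathway list (at most 6), the 2 most abundant members of each, the 3 most abundant of each marker list set beside a receptor (1 of them is not reported here), and for each called receptor the 3 most alike genes of at least 1 CPM. Other ligands and markers, and Pdzk1, were named beyond it, after their values were seen. Of 184 distinct genes on the lists, 182 were found. Positions are from GENCODE M21 (GRCm38), whose build may differ from that of the files. Figures were drawn with matplotlib.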

Additional observations from a re-analysis of the deposited data

How the results depend on the processing

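Over 18 alternatives Btla kept its direction, with log2 fold changes from -0.91 to -0.81 (-0.91 to -0.84 with a library left out), and was called in 15. With a library left out, 0 to 1 receptor genes passed. The count over all genes, 232, was 417 with no low-count filter, 355 with DESeq2, 126 with limma on log2(FPKM + 0.1), 125 with age as a covariate, 380 with the identical files counted separately, and 31 to 606 with a library left out. It was lowest without Toxf/f replicate 3 and highest without Toxf/fPdcd1Cre replicate 1, with 49 without the shared Toxf/f library and 114 without Toxf/fPdcd1Cre replicate 3. Of the ligands, 2 passed with upper-quartile factors, with either limma fit on FPKM and with age, 7 with DESeq2, and 0 to 7 with a library left out. TNF receptor family genes passed in 2 to 7 cases with a library left out. Of the other surface regulators, 1 passed with RLE factors, upper-quartile factors or age, 0 with either limma fit on FPKM, and 0 to 2 with a library left out. Icos changed sign with limma-voom (-0.0892), limma on log2(FPKM + 1) (-0.20) and on log2(FPKM + 0.1) (-0.22) and with age (-8.4e-05), and ranged from -0.63 to 0.38 with a library left out. Ctla4 ranged from -0.15 to 0.42 and Cd28 from -0.15 to 0.0722. Unless it is fewer samples, the cause was not tested.

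The labels do not say that replicate numbers mark pairs, so the main test used no block. Deviations of same-numbered libraries from their genotype means correlated over genes at -0.198 for replicate 1 and -0.157 for replicate 3. Deviations of the 2 Toxf/f libraries are mirror images of each other, so these correlations cannot decide whether the numbers are pairs. With the shared file as replicate 2, its header number, that pair was at 0.105 and replicate 3 still at -0.157. With the replicate block 435 genes passed, and 442 with the block on the identical files counted separately, where Icos was at -0.04. With the shared file as replicate 2 in the block, chosen after seeing the data, 868 genes, 2 receptors (Btla and Icos, the latter at -0.59 with adjusted p = 0.0196), 9 ligands and 7 TNF receptor family genes passed.

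The scarcest tested receptor, Tigit, had the widest interval, from -1.93 to -0.03.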

Other observations

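The counts and FPKM values of a gene imply the length used to scale it, which was the same in all libraries to within 1.01-fold for Ctla4, Lag3, Tigit, Havcr2 and Cd28. For Cd200 the implied length ranged from 1889 to 2349 bases, or 1.24-fold, and for Btla from 2710 to 2996 bases, or 1.11-fold. For Cd160 and Icos the ratios of the highest to the lowest were 1.10 and 1.09. FPKM differences of Cd200, Btla, Cd160 and Icos between libraries therefore hold a part that their counts do not.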
